A study of Sus scrofa with 4 samples.

Results

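Glypicans and syndecans are the main families of heparan sulfate proteoglycans held at the cell surface. The named set comprised 6 glypican genes (GPC1 to GPC6) and 4 syndecan genes (SDC1 to SDC4), chosen by name and not by their values. Of these 10 genes, 9 had a row among the 29263 genes of the deposited count tables, and SDC4 was not analysed here. The libraries came from lung cells of pigs with the LGR5-H2B-GFP knock-in, in which green fluorescent protein fused to a histone reports transcription of LGR5, a receptor for R-spondins. Cells of this genotype were separated into brightly fluorescent cells (GFP-HI) and non-fluorescent cells (GFP-NEG), with 2 biological replicates each, and no pig without the knock-in was among them. The sample labels give no age, and their protocol covers both adult and fetal lung; the name of the deposited comparison table speaks of adult pigs. The comparison asks how cells that transcribe LGR5 differ from the reporter-negative cells of the same tissue.

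Glypicans are tethered to the outer membrane leaflet by a glycosylphosphatidylinositol anchor, whereas syndecans span the membrane and carry a short cytoplasmic tail that binds scaffold proteins. Both bear long heparan sulfate chains, whose sulfation pattern determines which growth factors they hold. Through these chains they act as co-receptors or as sinks for fibroblast growth factors, Wnt proteins, Hedgehog proteins and bone morphogenetic proteins. In the lung, epithelial and mesenchymal cells are known to carry different members.

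The GFP-HI libraries held 24200550 and 24689986 counts, and the GFP-NEG libraries held 6292253 and 7045652. Values are counts per 1000000 (CPM), scaled by library total and TMM factor, so that 1 count was worth between 0.0452 and 0.155 CPM. The GFP-HI libraries held 3218 and 3073 counts of LGR5 itself, the GFP-NEG libraries 10 and 7. The summed CPM of 8 fibroblast markers was 80858 and 71078 in the GFP-HI libraries against 25139 and 8973 in the GFP-NEG libraries, so that fibroblast RNA was present in both fractions and was higher in GFP-NEG replicate 1 than in replicate 2. The 8 immune markers summed to 911 and 1276 CPM in GFP-HI against 3716 and 6522 CPM in GFP-NEG. None of the fibroblast or immune markers was at 0 in both libraries of either fraction. The 4 Schwann and neural markers with a row summed to 375 and 507 CPM in GFP-HI against 87.3 and 29.9 CPM in GFP-NEG. Most of that sum was NCAM1, a neural cell adhesion molecule named after its values were seen, which was at 369 and 491 CPM in GFP-HI against 81.4 and 21.3 CPM in GFP-NEG and rose by 3.07 on the log2 scale (edgeR adjusted p of 1.2e-04). The part of these markers in the members' differences was not tested. In such sorted bulk samples, fewer cells of a type and less RNA per cell cannot be told apart.

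Of the 8 members that passed the filter on low counts, 4 were higher (GPC3, GPC4, SDC1 and SDC2) and 1 was lower (GPC5) in GFP-HI at an adjusted p-value under 0.05 in edgeR's quasi-likelihood test. Among all 19682 genes tested, 8.33% were higher and 27.6% were lower. In 5 members (the 4 higher ones and GPC1) both GFP-HI libraries lay above both GFP-NEG libraries, an arrangement found in 27.7% of the genes tested. GPC5 had both GFP-HI libraries below both GFP-NEG libraries, as did 42.0% of the genes tested. GPC6 and SDC3 overlapped between the fractions. GPC2 had too few counts to be tested. GPC5 passed the filter through its GFP-NEG counts alone, so its direction was bound to that group.

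**Figure D1:**
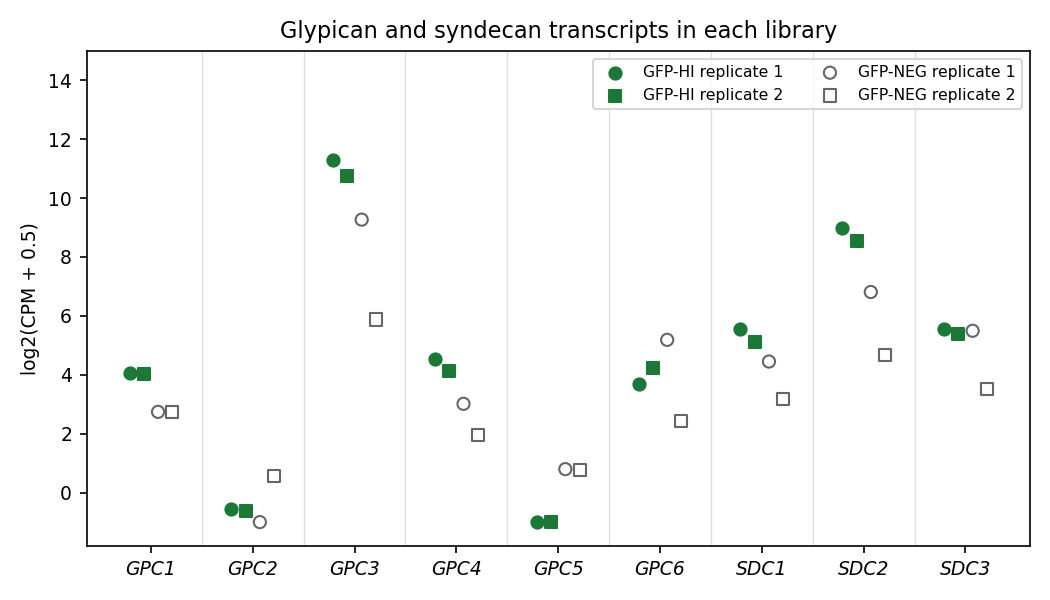
Level of each glypican and syndecan in the 4 libraries, on the vertical axis as log2(CPM + 0.5), with filled green symbols for GFP-HI, open grey symbols for GFP-NEG, circles for replicate 1 and squares for replicate 2. GPC3, GPC4, SDC1, SDC2 and GPC1 have both green symbols above both grey ones, and the grey symbols of GPC3 are 10.6-fold apart in CPM.

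GPC3 encodes glypican-3, which binds Hedgehog proteins and restrains growth; its loss causes an overgrowth syndrome in humans. The GFP-HI libraries held 55586 and 34730 counts of GPC3, the GFP-NEG libraries 3976 and 533. On the CPM scale these were 2510.3 and 1716 CPM in GFP-HI against 616 and 58.2 CPM in GFP-NEG. Both GFP-HI libraries were thus above both GFP-NEG libraries, but the GFP-NEG libraries themselves differed by 10.6-fold. GPC3 lay above 99.6% or more of the tested genes by CPM in each GFP-HI library, on a scale that is not corrected for gene length. The group means were 2113 ± 562 CPM and 337 ± 394 CPM (SD, n = 2 each). GPC3 rose by 2.65 on the log2 scale (SE 0.94, adjusted p of 0.0173, edgeR). The call was lost when any library other than GFP-NEG replicate 1 was left out, with log2 fold changes of 2.39 without GFP-HI replicate 1, 2.90 without GFP-HI replicate 2 and 1.78 without GFP-NEG replicate 2 (adjusted p of 0.0796, 0.0845 and 0.318). Without GFP-NEG replicate 1 the value was 5.18 with an adjusted p of 0.00108, so that the size of the change is set by which GFP-NEG library is used. With the replicate number as a block the log2 fold change of GPC3 was 3.45 (edgeR adjusted p of 0.00169).

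GPC4 encodes glypican-4, a modulator of Wnt and fibroblast growth factor signalling, and its gene is the direct neighbour of GPC3, with 0 protein-coding genes between them in the RefSeq order. The GFP-HI libraries held 506 and 343 counts of GPC4, the GFP-NEG libraries 49 and 31, or 22.9 and 16.9 CPM against 7.59 and 3.39 CPM. The lower GFP-HI library was above the higher GFP-NEG library. GPC4 rose by 1.87 on the log2 scale (SE 0.64, adjusted p of 0.0129, edgeR). Its call was lost with plain library-total scaling (log2 fold change 1.51, adjusted p of 0.0799), and without GFP-HI replicate 1 (1.70, adjusted p of 0.117) or GFP-NEG replicate 2 (1.39, adjusted p of 0.278). Without GFP-NEG replicate 1 the value was 2.55. Although both neighbours were called in the same direction, the GFP-NEG libraries differed by 2.24-fold in GPC4 against 10.6-fold in GPC3.

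GPC1 encodes glypican-1, a co-receptor for fibroblast growth factors known from the nervous system and blood vessels. Its counts were 360 and 320 in GFP-HI against 40 and 56 in GFP-NEG. Its levels were 16.3 and 15.8 CPM in GFP-HI against 6.19 and 6.12 CPM in GFP-NEG. GPC1 had the closest replicates among the members with over 100 counts in a library, and its groups did not overlap. Its log2 fold change was 1.38 (SE 0.66, 95% interval 0.086 to 2.67) with an adjusted p of 0.0904 (edgeR), which missed the threshold. When single libraries were left out the value stayed between 1.37 and 1.43, and with the replicate number as a block, a fit that called 8.66% of genes higher, the adjusted p was 0.0501. With the same block in DESeq2, which called 6.93% of genes higher, the adjusted p was 0.276. The test draws its spread from all genes of similar abundance, so the small scatter of GPC1 itself carried little weight.

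GPC5 and GPC6 also lie side by side, with 0 protein-coding genes between them. GPC6 encodes glypican-6, whose loss causes a human skeletal dysplasia, and GPC5 encodes glypican-5, a binder of Hedgehog proteins. For GPC6 the counts were 276 and 368 in GFP-HI against 232 and 45 in GFP-NEG. Its levels were 12.5 and 18.2 CPM in GFP-HI against 35.9 and 4.92 CPM in GFP-NEG, so that the GFP-HI libraries lay between the GFP-NEG libraries. The log2 fold change of GPC6 was -0.41 (SE 0.57, 95% interval -1.52 to 0.71, adjusted p of 0.621, edgeR). Its sign depended on GFP-NEG replicate 1, since the value was 1.64 when that library was left out and -1.23 when the other GFP-NEG library was; with the replicate block it was 0.13 (edgeR adjusted p of 0.896). On the scale of log2(CPM + 0.5), GFP-HI less GFP-NEG was -1.49 within replicate 1 and 1.79 within replicate 2.

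GPC5 had 0 counts in both GFP-HI libraries, against 8 and 11 counts in the GFP-NEG libraries. A count of 0 allows a level of up to 0.135 and 0.148 CPM in the GFP-HI libraries (3 counts each, counting error only). The GFP-NEG levels were 1.24 and 1.20 CPM. Set against the higher floor of 3 counts per GFP-HI library, the lower GFP-NEG level was 8.11-fold higher, in a direction that the filter had fixed. This figure leaves out the counting error of the 8 and 11 GFP-NEG counts, so it is not a lower bound. The call was lost when either GFP-NEG library was left out, and after thinning of the GFP-HI libraries to the GFP-NEG depth GPC5 no longer passed the filter. The GFP-NEG level of GPC5 was of the size seen for genes of other organs: 25 tissue-restricted genes, such as those of the retina, liver and germ line, had a median of 0.310 and 0.983 CPM and a 95th percentile of 3.41 and 6.51 CPM in the GFP-NEG libraries. In the GFP-HI libraries the median of these genes was 0 CPM, although those libraries were deeper. Their 95th percentile there was 1.98 and 4.03 CPM, so such signal was not absent from GFP-HI. The part of this low-level signal in the GPC5 result was not tested.

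GPC2 encodes glypican-2, a glypican of developing neurons. Its counts were 4 and 3 in GFP-HI against 0 and 9 in GFP-NEG, or 0.181 and 0.148 CPM against 0 and 0.983 CPM. The fractions overlapped, and no fold is given at these counts.

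Among the syndecans, SDC2 differed most between the fractions on the log2 scale. SDC2 encodes syndecan-2, also called fibroglycan, which is typical of mesenchymal cells. There were 11140 and 7504 counts of SDC2 in the GFP-HI libraries against 722 and 227 in the GFP-NEG libraries. Its levels were 503 and 371 CPM in GFP-HI against 112 and 24.8 CPM in GFP-NEG, and every GFP-HI value was above every GFP-NEG value. The group means were 437 ± 93.5 CPM and 68.3 ± 61.5 CPM (SD, n = 2 each). SDC2 rose by 2.68 on the log2 scale (SE 0.68, adjusted p of 5.3e-04, edgeR). Of the 14 alternative fits, 13 kept this call. The exception was the fit without GFP-NEG replicate 2 (log2 fold change 1.97, adjusted p of 0.200), and without GFP-NEG replicate 1 the value was 4.14.

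SDC1 encodes syndecan-1, the syndecan of epithelia, which is also the plasma cell surface marker CD138. There were 1029 and 695 counts of SDC1 in the GFP-HI libraries against 138 and 78 in the GFP-NEG libraries, or 46.5 and 34.3 CPM against 21.4 and 8.52 CPM. The groups did not overlap. SDC1 rose by 1.44 on the log2 scale (SE 0.54, adjusted p of 0.0248, edgeR), and this call was lost in 7 of the 14 alternative fits, among them DESeq2 (log2 fold change 1.41, adjusted p of 0.0642, in a fit that called 6.91% of genes higher), plain library-total scaling (1.10, adjusted p of 0.115) and the fits without GFP-HI replicate 1 (1.26, adjusted p of 0.140) or GFP-NEG replicate 2 (0.92, adjusted p of 0.493). Without GFP-NEG replicate 1 the value was 2.24. The 8 epithelial markers summed to 236 and 215 CPM in GFP-HI against 557 and 153 CPM in GFP-NEG, and EPCAM was at 2.03 and 1.63 CPM against 5.57 and 3.82 CPM. The 9 markers of B cells and plasma cells summed to 730 and 758 CPM in GFP-HI against 1180 and 1579 CPM in GFP-NEG. JCHAIN, the joining chain of secreted antibodies, was at 32.2 and 82.9 CPM in GFP-HI against 510 and 650 CPM in GFP-NEG. Of these 9 markers, 5 were lower and 0 were higher past the threshold, against 27.6% and 8.33% of all genes tested. PRDM1 and XBP1, transcription factors of plasma cells named after their values were seen, lay higher in both GFP-HI libraries, at 105.1 and 95.8 CPM against 55.1 and 36.0 CPM for PRDM1 and at 501 and 381 CPM against 270 and 131 CPM for XBP1, without passing the threshold (edgeR adjusted p of 0.0820 and 0.192). The part of B and plasma cells in the SDC1 difference was not tested.

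SDC3 encodes syndecan-3, a syndecan of neural and musculoskeletal tissue that binds pleiotrophin. There were 1025 and 836 counts of SDC3 in the GFP-HI libraries against 288 and 101 in the GFP-NEG libraries. Its levels were 46.3 and 41.3 CPM in GFP-HI against 44.6 and 11.0 CPM in GFP-NEG. GFP-NEG replicate 1 lay between the GFP-HI libraries, so the groups overlapped. The log2 fold change of SDC3 was 0.66 (SE 0.52, 95% interval -0.36 to 1.67, adjusted p of 0.341, edgeR). It was 1.99 without GFP-NEG replicate 1, where it passed the threshold (adjusted p of 0.0375), and -0.026 without GFP-NEG replicate 2.

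**Figure D2:**
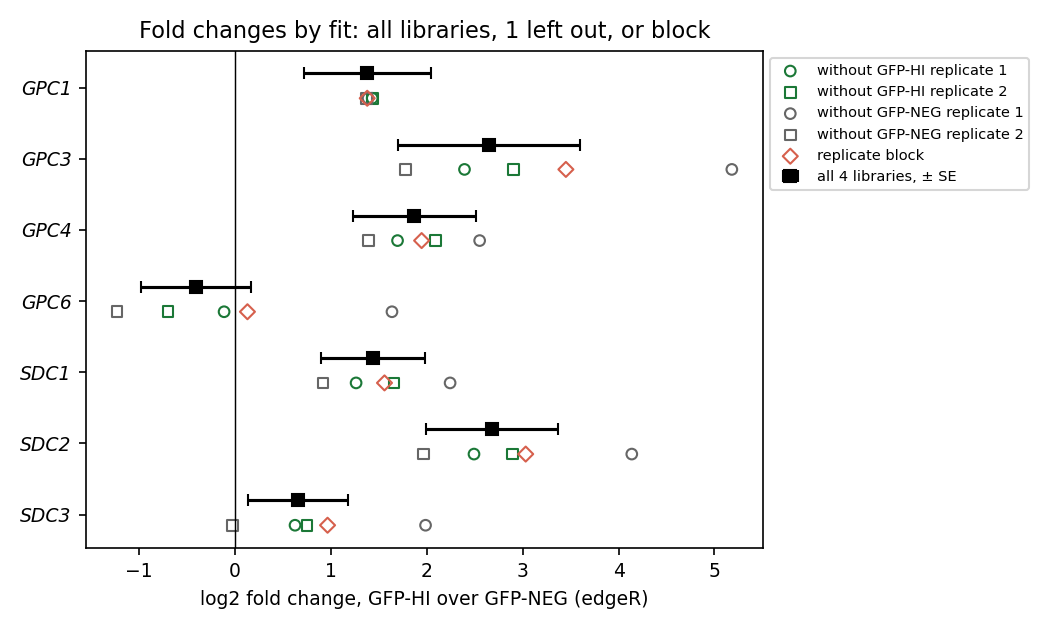
Log2 fold change of GFP-HI over GFP-NEG from edgeR (horizontal axis) for the 7 tested members with counts in every library, with black squares and bars for all 4 libraries and their SE, and open symbols for fits without 1 library or with the replicate block. GPC1 stays between 1.37 and 1.43 when a library is left out, whereas GPC3 ranges from 1.78 to 5.18 and the open symbols of GPC6 and SDC3 fall on both sides of 0.

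The GFP-NEG libraries therefore weighed on most of these values. The ratio of GFP-NEG replicate 1 to replicate 2 in CPM was 10.6 for GPC3, 7.30 for GPC6, 4.51 for SDC2, 4.04 for SDC3, 2.51 for SDC1 and 2.24 for GPC4, but 1.01 for GPC1 and 1.03 for GPC5. PDGFRA, a receptor that marks lung fibroblasts, had a ratio of 4.28 between the same libraries, the summed fibroblast markers 2.80, and the summed smooth muscle and pericyte markers 6.65. The immune markers went the other way, with a ratio of 0.570. Between the GFP-HI libraries, the ratios of the 7 tested members with counts there lay between 0.685 (GPC6) and 1.46 (GPC3). The part of the mixture of cell types in these differences was not tested.

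The authors' deposited table lists 7 of the members and omits GPC2 and GPC5. It gives a log2 fold change of 2.68 for SDC2 (adjusted p of 5.1e-04), 2.65 for GPC3 (0.00402) and 1.86 for GPC4 (0.0268), each past the threshold of 0.05. SDC1, at 1.44 with an adjusted p of 0.0656 in the authors' deposited table, was not past it, unlike in the edgeR fit. GPC1 (1.37, adjusted p of 0.0951), SDC3 (0.66, 0.469) and GPC6 (-0.41, 0.729) were not past it in the authors' deposited table either. In that table, 8.20% of the 16250 genes are higher and 11.2% are lower at this threshold.

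Which member dominated was compared between the fractions through ratios of counts within each library, in which gene length and library scaling cancel between libraries. These ratios were chosen after the members' values were seen and carry no test. GPC3 had 201 and 94.4 counts per count of GPC6 in the GFP-HI libraries, against 17.1 and 11.8 in the GFP-NEG libraries. SDC2 had 10.9 and 8.98 counts per count of SDC3 in GFP-HI, against 2.51 and 2.25 in GFP-NEG. SDC2 against SDC1 was similar in kind, at 10.8 in both GFP-HI libraries, against 5.23 and 2.91 in GFP-NEG. For these 3 pairs the fractions did not overlap, although GPC6 and SDC3 overlapped on the CPM scale. The ratio of GPC3 to GPC1 did not overlap either, at 154 and 109 in GFP-HI against 99.4 and 9.52 in GFP-NEG. GFP-NEG replicate 1 was close to the GFP-HI libraries there. GPC3 to GPC4 was likewise higher in both GFP-HI libraries, at 110 and 101 against 81.1 and 17.2 in GFP-NEG. The ratio of GPC3 to SDC2 overlapped, at 4.99 and 4.63 in GFP-HI against 5.51 and 2.35 in GFP-NEG.

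How GPC3 and SDC2 stood relative to fibroblast transcripts depended on the transcript chosen, in ratios that were again set after the values were seen. PDGFRA changed more than either, by 11.5-fold in mean CPM. The counts of PDGFRA itself were 18141 and 11348 in GFP-HI against 626 and 207 in GFP-NEG. There were 3.06 counts of GPC3 per count of PDGFRA in both GFP-HI libraries, against 6.35 and 2.57 in the GFP-NEG libraries. There were 0.614 and 0.661 counts of SDC2 per count of PDGFRA in GFP-HI against 1.15 and 1.10 in GFP-NEG, so that SDC2 was lower relative to PDGFRA in both GFP-HI libraries. Relative to the collagen gene COL1A1, by contrast, SDC2 was higher in both GFP-HI libraries, at 25.9 and 31.2 counts per 1000 counts of COL1A1 against 19.9 and 8.58 in GFP-NEG. Over the 8 fibroblast markers taken singly, the SDC2 ratio was higher in both GFP-HI libraries for 3, lower for 3 and overlapping for 2, and the GPC3 ratio was higher for 2, lower for 1 and overlapping for 5. The SDC2 ratio was higher for the collagen genes COL1A1, COL1A2 and COL3A1, and lower for PDGFRA, DCN and FBLN1. Those collagen genes had the highest mean CPM of the 8 markers in both fractions, so a summed ratio mainly follows them. Per 1000 counts of the 8 markers summed, SDC2 had 6.22 and 5.22 in GFP-HI against 4.45 and 2.76 in GFP-NEG, without overlap. On the same scale GPC3 overlapped, at 31.0 and 24.1 in GFP-HI against 24.5 and 6.49 in GFP-NEG.

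**Figure D3:**
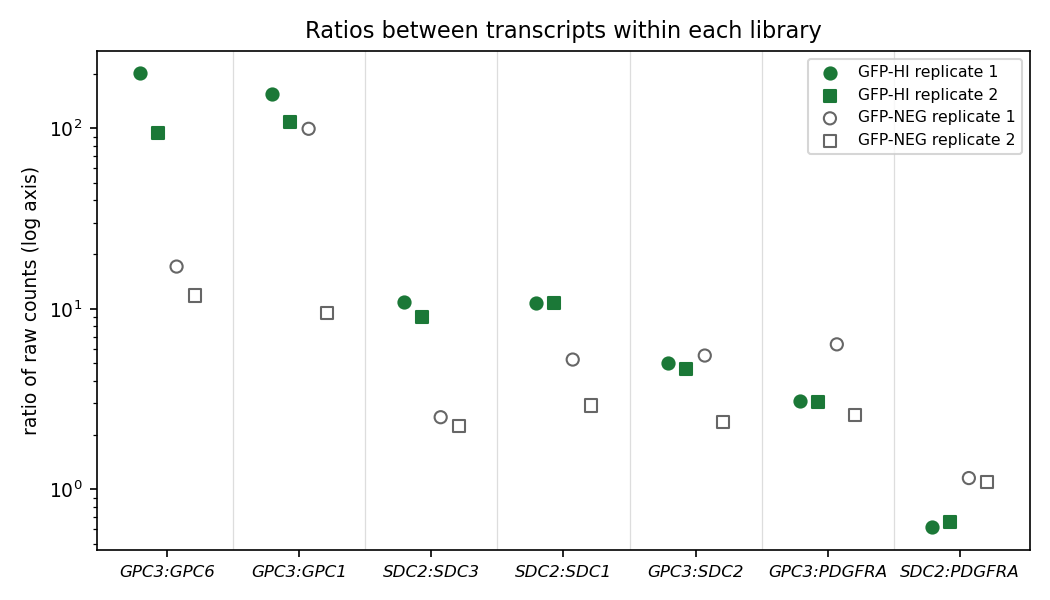
Ratios of raw counts between pairs of transcripts within each library, on a logarithmic vertical axis, with filled green symbols for GFP-HI, open grey symbols for GFP-NEG, circles for replicate 1 and squares for replicate 2. GPC3:GPC6, GPC3:GPC1, SDC2:SDC3 and SDC2:SDC1 are higher in both GFP-HI libraries than in both GFP-NEG libraries, and SDC2:PDGFRA is lower. For GPC3:GPC1, GFP-NEG replicate 1 lies close to the GFP-HI libraries.

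The enzymes that build heparan sulfate chains on these core proteins were examined as a list of 12 genes, all of them tested. In GFP-HI 4 were higher and 2 were lower, against 8.33% and 27.6% of all genes tested. The median log2 fold change was 0.60, against -0.25 over all genes tested. EXTL3, which adds the first sugar that commits a chain to heparan sulfate, was at 248 and 181 CPM in GFP-HI against 49.4 and 24.7 CPM in GFP-NEG. EXTL3 rose by 2.53 on the log2 scale (edgeR adjusted p of 2.1e-04). EXT1 and EXT2 form the polymerase that extends the chain. EXT1 was at 35.3 and 45.3 CPM in GFP-HI against 11.5 and 5.46 CPM in GFP-NEG, and EXT2 at 70.9 and 49.1 against 26.3 and 10.4 CPM. They rose by 2.26 and 1.71 on the log2 scale (edgeR adjusted p of 4.2e-04 and 0.00504). EXTL2, whose product can also end a chain, rose by 1.54 (adjusted p of 0.0215). XYLT1, a xylosyltransferase that starts the linker on the core protein, fell by 2.22 on the log2 scale, from 15.3 and 24.5 CPM in GFP-NEG to 4.38 and 4.15 CPM in GFP-HI (adjusted p of 0.00309, edgeR). Its paralog XYLT2 had a log2 fold change of 0.94 (edgeR adjusted p of 0.154). EXTL1 fell by 3.86 (adjusted p of 8.8e-04). EXTL2, EXTL1 and XYLT2 were outside the rule for named genes and were chosen after their values were seen. EXTL1 passed the filter only through its GFP-NEG counts, so its direction was bound to that group. Without GFP-NEG replicate 2, 0 of the 12 genes were higher and 1 was lower, in a fit that called 1.04% of all genes tested higher and 6.98% lower. Without GFP-NEG replicate 1, EXT1 was at 2.88 and EXT2 at 2.53, and EXT2 also missed the threshold without GFP-HI replicate 1 (1.48, adjusted p of 0.0685).

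Of the 16 genes for epimerisation and sulfation of the chain, 10 were tested, 2 were higher and 2 were lower. Over all genes tested, 8.33% were higher and 27.6% were lower. The median log2 fold change of the list was 0.061, against -0.25 over all genes tested. GLCE, the epimerase that converts glucuronic to iduronic acid, was at 94.1 and 101 CPM in GFP-HI against 31.7 and 34.3 CPM in GFP-NEG. GLCE rose by 1.56 and HS2ST1, which sulfates iduronic acid, rose by 1.41 on the log2 scale (edgeR adjusted p of 0.0121 and 0.0246). With library-total scaling, which called 4.59% of all genes higher, 0 of the 10 were higher, and without GFP-NEG replicate 2, which called 1.04%, also 0. GLCE also missed the threshold without GFP-NEG replicate 1 (adjusted p of 0.141), and HS2ST1 missed it in 7 of the 14 alternative fits, among them the one without GFP-HI replicate 1 (adjusted p of 0.143). The lower genes were NDST3 and HS6ST2, named after their values were seen, with 15 and 2 counts against 32 and 53 for NDST3, and 3 and 0 counts against 20 and 7 for HS6ST2. Both passed the filter only through their GFP-NEG counts, so their direction was bound to that group. Their GFP-NEG levels were 4.95 and 5.79 CPM for NDST3 and 3.10 and 0.765 CPM for HS6ST2. The tissue-restricted genes had their 95th percentile at 3.41 and 6.51 CPM there. HS6ST2 was below it in both GFP-NEG libraries, and NDST3 was above it in replicate 1 and below it in replicate 2. With the replicate block 1 of the 10 was lower, against 24.3% of all genes tested.

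Among the 4 genes that edit finished chains outside the cell, 1 rose and 1 fell, against 8.33% and 27.6% of all genes tested. SULF1 encodes a sulfatase that removes 6-O-sulfate groups from chains at the cell surface. There were 16783 and 11665 counts of SULF1 in the GFP-HI libraries against 427 and 336 in the GFP-NEG libraries, or 758 and 576 CPM against 66.1 and 36.7 CPM. SULF1 rose by 3.70 on the log2 scale (SE 0.76, adjusted p of 3.2e-05, edgeR) and kept its call in all 14 alternative fits. SULF2, the other sulfatase, was at 35.5 and 32.1 CPM in GFP-HI against 28.9 and 11.0 CPM in GFP-NEG, and its log2 fold change was 0.76 (edgeR adjusted p of 0.279). There were 21.4 and 18.0 counts of SULF1 per count of SULF2 in GFP-HI, against 2.28 and 3.33 in GFP-NEG. SULF2 was outside the rule for named genes, and SULF2 and this ratio were chosen after their values were seen. HPSE encodes heparanase, which cuts the chains and is known from neutrophils and platelets. The GFP-HI libraries held 0 and 15 counts of HPSE and the GFP-NEG libraries 45 and 120, and HPSE fell by 4.75 on the log2 scale (edgeR adjusted p of 7.3e-05). HPSE, too, passed the filter only through its GFP-NEG counts, so its direction was bound to that group. The leukocyte gene PTPRC was at 45.8 and 121 CPM in GFP-HI against 685 and 1210.1 CPM in GFP-NEG, and its part in the HPSE difference was not tested. The log2 fold change of HPSE was -3.66 without GFP-HI replicate 1. It was -9.96 without GFP-HI replicate 2, which leaves a GFP-HI library at 0.

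Of 13 genes for processing and shedding of the core proteins, 11 were tested, 2 were higher and 1 was lower. The shares over all genes tested were 8.33% and 27.6%. The median log2 fold change of the list was 0.045, against -0.25 over all genes tested. PCSK6, a proprotein convertase, was at 38.9 and 52.6 CPM in GFP-HI against 5.73 and 3.61 CPM in GFP-NEG, and rose by 3.30 on the log2 scale (edgeR adjusted p of 1.5e-06). MMP14, a membrane-bound metalloproteinase that can shed syndecan-1, rose by 1.74 (adjusted p of 0.00454); it was at 2.98 without GFP-NEG replicate 1 and missed the threshold at 1.35 without GFP-HI replicate 1 and at 1.07 without GFP-NEG replicate 2. MMP9, a metalloproteinase of neutrophils, fell by 4.99 on the log2 scale (edgeR adjusted p of 2.0e-10). It passed the filter only through its GFP-NEG counts, so its direction was bound to that group. MMP9 was at -5.69 without GFP-HI replicate 2. NOTUM, an extracellular enzyme first described as a cleaver of glypican anchors, had 73 and 29 counts in GFP-HI against 15 and 5 in GFP-NEG, and its log2 fold change was 0.74 (edgeR adjusted p of 0.672). NOTUM was named outside the rule, after its values were seen.

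Among 7 cytoplasmic partners of syndecans, 1 was higher and 0 were lower, against 8.33% and 27.6% of all genes tested. CASK, a scaffold whose PDZ domain binds the syndecan tail, was at 51.9 and 59.1 CPM in GFP-HI against 17.6 and 4.15 CPM in GFP-NEG. CASK rose by 2.36 on the log2 scale (edgeR adjusted p of 1.7e-04), but not past the threshold without GFP-NEG replicate 2 (1.65, adjusted p of 0.180), and it was at 3.74 without GFP-NEG replicate 1. SDCBP, which encodes syntenin, another binder of the tail, was at 540.1 and 814 CPM in GFP-HI against 783 and 626 CPM in GFP-NEG, and its log2 fold change was -0.057 (edgeR adjusted p of 0.966). SDCBP was chosen after its values were seen.

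Of the 4 other genes for proteins that carry heparan sulfate, TGFBR3 and HSPG2 were higher and 0 were lower. The shares over all genes tested were 8.33% higher and 27.6% lower. TGFBR3 encodes betaglycan, a co-receptor for transforming growth factor beta. It was at 1196 and 884 CPM in GFP-HI against 183 and 37.9 CPM in GFP-NEG, and rose by 3.23 on the log2 scale (edgeR adjusted p of 4.8e-04). HSPG2, which encodes the basement membrane proteoglycan perlecan, was at 708 and 391 CPM in GFP-HI against 157 and 52.0 CPM in GFP-NEG, and rose by 2.40 (adjusted p of 0.00328). Neither passed the threshold without GFP-NEG replicate 2, where the values were 2.50 and 1.81; without GFP-NEG replicate 1 they were 4.78 and 3.40.

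Secreted proteins that bind heparan sulfate formed a list of 14 genes, 13 of them tested. In GFP-HI 6 were higher and 2 were lower, against 8.33% and 27.6% of all genes tested. The median log2 fold change was 1.29. With the replicate block 8 were higher and 2 lower, in a fit that called 8.66% of all genes higher and 24.3% lower. In DESeq2 with the block 6 were higher and 1 was lower. That fit called 6.93% of 18155 genes higher and 3273 of them lower. PTN, which encodes pleiotrophin, a ligand of syndecan-3, was at 219 and 566 CPM in GFP-HI against 21.1 and 3.28 CPM in GFP-NEG. PTN rose by 5.02 on the log2 scale (SE 0.74, adjusted p of 2.4e-09, edgeR), whereas SDC3 itself was not past the threshold. BMP4, a bone morphogenetic protein, rose by 4.12, and FGF10, a fibroblast growth factor of lung mesenchyme, by 3.41 (adjusted p of 7.5e-07 and 3.2e-07). Leaving out 1 library moved these sizes: PTN was at 6.90 and 4.22 in the fits lacking GFP-NEG replicate 1 and 2, respectively, and at 4.19 in the fit lacking GFP-HI replicate 2. In the 2 fits lacking a GFP-NEG library, BMP4 was at 5.03 and 3.57 and FGF10 at 4.24 and 2.88. HBEGF, a heparin-binding ligand of the epidermal growth factor receptor, fell by 3.44, and PDGFA fell by 2.16 (adjusted p of 1.0e-07 and 0.0131). PDGFA missed the threshold without GFP-HI replicate 2 (-1.65, adjusted p of 0.155) and without GFP-NEG replicate 1 (-1.94, adjusted p of 0.0833). The count of higher ligand genes lay between 4 and 8 when single libraries were left out.

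**Figure D4:**
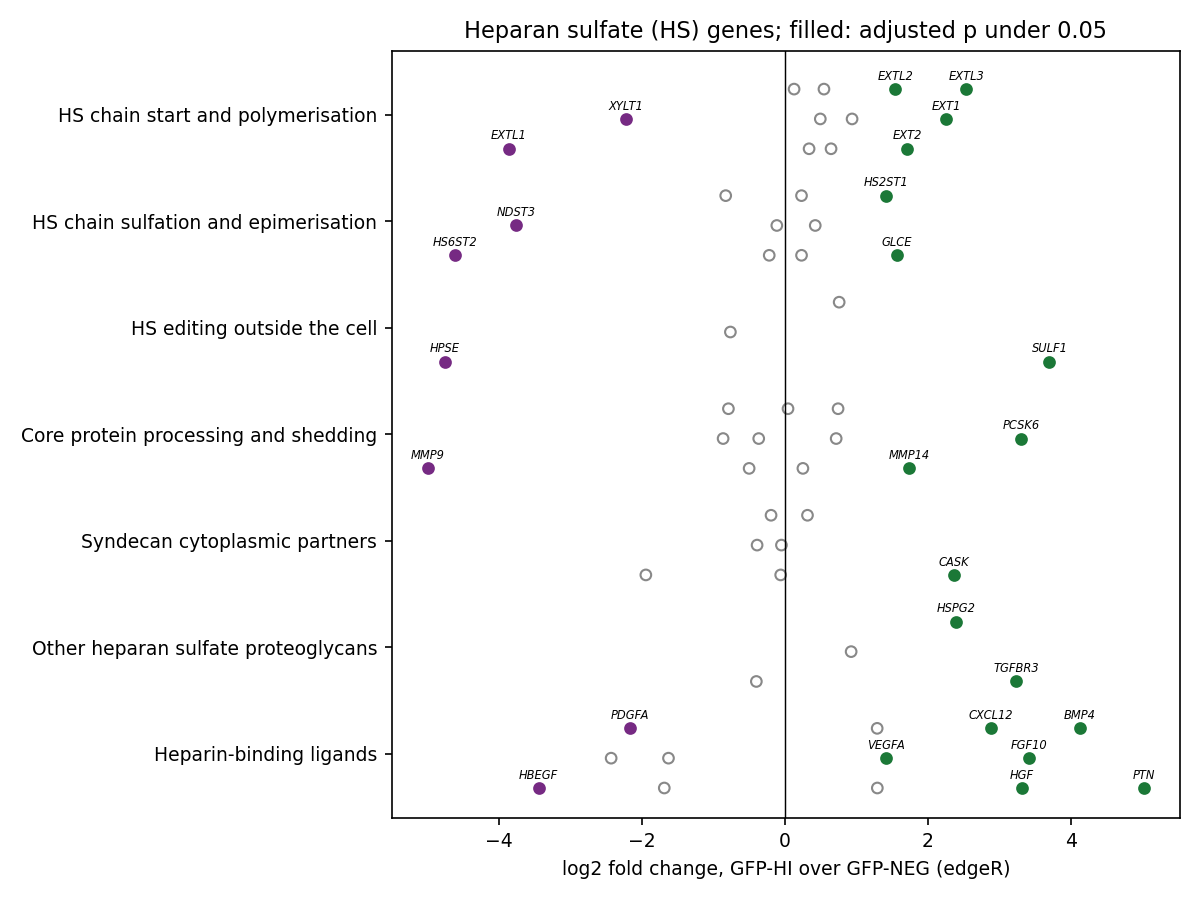
Log2 fold change of GFP-HI over GFP-NEG from edgeR (horizontal axis) for each tested gene of 7 lists around heparan sulfate (HS), 1 list per band, with filled green circles for genes higher and filled purple circles for genes lower at an adjusted p-value under 0.05 and open circles for the others. SULF1 and HPSE lie at opposite ends of the list of editing enzymes, at 3.70 and -4.75. HPSE, EXTL1, NDST3, HS6ST2 and MMP9 passed the filter only through their GFP-NEG counts, so their direction was bound to that group.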

How the data were processed

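RNA-seq libraries were made with the Nextera XT kit from sorted lung cells, 2 per fraction. The deposited values are whole-number counts per gene, made with featureCounts of Subread 1.5.2 per the submitters' processing notes, which also name DESeq2 1.37.6. The aligner, strand setting and genome build are not given in the sources used here, so no coordinates are given and overlapping genes are uncertain. The deposited comparison table holds, per the file headers, the same counts (4 of 4 count columns identical), a mean normalized signal, a log2 fold change, a test statistic (score) and p-values by the authors; 4 further columns of sample values were not used, since 2 of their headings and the counts beneath them point to different libraries.

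Here, identifiers were given symbols where the name table had a free one (834 of 844 matches). All 4 libraries entered edgeR 4.0.16 in R 4.3.3: TMM scaling, filterByExpr (19682 genes), the quasi-likelihood test with group as the only term, and Benjamini-Hochberg adjustment over all genes tested. SE is the log2 fold change divided by the square root of F, and intervals are 95% from that SE. The fit was tested on simulated data, where many genes made to differ were not called. The replicate numbers were taken as pairs because the deposited table heads its unused columns of sample values by pig. Some of those headings conflict with the counts beneath them, and the sample labels say only biological replicate. The pairing is therefore uncertain. Over genes, deviations of same-numbered libraries from their group means correlated at 0.179. P-values measure the spread between these samples, pooled over genes.

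Members and lists were chosen with earlier results of these data known. Named genes are the members, LGR5, 5 marker genes and, per list and direction, up to 3 called genes of the largest fold change with a mean of at least 5 CPM; others are stated as chosen after their values were seen. Of the 4 mesothelial markers only 2, WT1 and CALB2, had a row, and these summed to at most 3.17 CPM per library. MSLN and UPK3B had no row, so this sum does not show how much mesothelial RNA was present. Endothelial markers summed to 182 and 190 CPM in GFP-HI and 544 and 1344 CPM in GFP-NEG. Alternatives were other scalings and filters, robust dispersion, DESeq2 1.42.0, a replicate block, thinning and leaving out each library.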

Additional observations from a re-analysis of the deposited data

How the results depend on the processing

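Of the 14 alternatives, 10 kept all 4 libraries. Under these 10 the calls of GPC3 and SDC2 and the missed calls of GPC1, GPC6 and SDC3 held. GPC4 fell short under upper-quartile scaling (log2 fold change 1.59), library total alone (1.51), thinning (1.65) and DESeq2 with the block (1.91), and SDC1 under the same fits (1.18, 1.10, 1.28 and 1.52) and DESeq2 (1.41). The replicate block, which pairs libraries by number, turned GPC6 to 0.13 (0.12 under DESeq2 with the block); in edgeR it changed no member's call. GPC5 kept its call where these fits gave an adjusted p; it failed the filter after thinning and had none under DESeq2 with the block.

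With 1 library left out, the lone library is assumed to vary like the others. The log2 fold change then ranged from 1.78 to 5.18 for GPC3, 1.39 to 2.55 for GPC4, -7.38 to -6.84 for GPC5 (fitted against 0 counts and no bound), -1.23 to 1.64 for GPC6, 0.92 to 2.24 for SDC1, 1.97 to 4.14 for SDC2 and -0.026 to 1.99 for SDC3. GPC6 turned to 1.64 without GFP-NEG replicate 1 and SDC3 to -0.026 without GFP-NEG replicate 2.

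Over all genes, 1639 were higher and 5431 lower. The higher count was 1083 under upper-quartile scaling, 904 under library total alone and 204 to 1539 with a library left out (lowest when GFP-NEG replicate 2 was absent, and 891 when GFP-HI replicate 2 was). The lower count was 3273 under DESeq2 with the replicate block, 3568 after thinning and 1373 to 4680 with a library left out. The median log2 fold change over all genes was -0.25 with TMM, -0.58 with upper-quartile scaling and -0.67 with library total alone, which also took the higher genes from 23.2% to 16.1% and 13.6% of the calls.

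Of the sulfation genes, 1 was higher under upper-quartile scaling, DESeq2, DESeq2 with the block and thinning and 0 under library total alone. Over all genes, the higher shares were 1083 of 19682, 6.91%, 6.93%, 1119 of 16512 and 4.59%, in that order. In the lower direction, 1 sulfation gene was called under the 1 CPM filter, thinning, the replicate block and DESeq2 with the block. The lower counts over all genes were 4568 of 18191, 3568 of 16512, 4792 of 19682 and 3273 of 18155, in that order. With library total alone 2 processing genes were lower, against 5726 of 19682 over all genes. Under DESeq2 with the block 1 ligand gene was lower, against 3273 of 18155 over all genes. With a library left out, the chain-building list had 0 to 4 higher and 1 to 2 lower, the sulfation list 0 to 2 in each direction, processing 1 to 3 higher, syndecan partners 0 to 1, other proteoglycans 0 to 3, and ligands 4 to 8 higher and 1 to 3 lower. The causes of these shifts were not tested. GPC2 and GPC5 are limited by depth, since 1 GFP-NEG count is worth 0.109 to 0.155 CPM.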
